A study of Mus musculus with 9 samples.

Results

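The genes described here are 10 secreted or membrane-bound regulators of the extracellular matrix: the matrix metalloproteinase genes Mmp2, Mmp3, Mmp9, Mmp11, Mmp12, Mmp13 and Mmp14, and the tissue inhibitor genes Timp1, Timp2 and Timp3. They were taken by symbol, and all 10 were found among the 22195 mouse genes to which estimated reads could be summed. RNA came from skin tumors that grew from YUMMER1.7 cells, a mouse melanoma line, under the skin of immunocompetent C57BL/6J mice. Once a tumor had reached 20-50 mm3, the mouse was given an IgG isotype control, an antibody to the checkpoint protein B7-H3 or an antibody to the checkpoint receptor PD-1. Each group holds 3 libraries of total RNA depleted of ribosomal RNA, and all 9 libraries come from tumors of the same cell line. Tumors with both antibodies together, which the series design names, were not analysed here. The labels do not give the animals' age or state that each library is its own mouse, and p-values then cover only the spread from library to library, which may be technical.

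Matrix metalloproteinases are zinc-dependent endopeptidases that are made as inactive proenzymes and cleave collagens, other matrix proteins, cytokines and cell surface receptors once their propeptide is removed. TIMPs bind the active site and block it, and so the ratio of protease to inhibitor is commonly followed in tumors. In solid tumors many of these genes are transcribed by fibroblasts and macrophages as well as by tumor cells. RNA levels do not show how much of each enzyme is active.

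The libraries held between 8627930 and 27288766 estimated reads. Major satellite repeats, the tandem repeats beside mouse centromeres, took 87.0 to 92.0% of gene reads in the IgG libraries, 5.24 to 28.2% after anti-B7-H3 and 14.6 to 38.2% after anti-PD1. That left 1252540 to 3546706 reads outside the satellites after IgG and 5326276 to 14408350 after either antibody. Olfactory and vomeronasal receptor genes, normally silent in skin, gave 768 to 4863 CPM (reads scaled to a common library size) outside the satellites after IgG, 40.6 to 200 after anti-B7-H3 and 79.3 to 283 after anti-PD1. The IgG libraries therefore stand apart from the others in composition. How far this enters a comparison with IgG cannot be told apart from the treatment, and the comparison of anti-B7-H3 with anti-PD1 does not use the IgG means. Summed markers of the melanocyte lineage reached only 4.58 to 21.1 CPM, with 1 of 8 genes abundant enough to test, so pigment cell genes do not mark these tumors.

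For the 10 genes the receptor reads give a measure of background. The receptor genes carried 1.72 to 3.84 reads per kilobase of coding sequence in the IgG libraries, 0.354 to 0.911 after anti-B7-H3 and 0.415 to 0.949 after anti-PD1. In IgG replicate 3 Mmp13 had 2 reads, while 5.44 would be predicted from its coding length. Mmp12 had 10 reads there against 5.40 predicted, and Mmp11 had 16 against 5.09. Predicted reads came to at most 6.80% of the reads of any of the 10 genes after anti-B7-H3 and to at most 8.98% after anti-PD1. The Mmp13 level in IgG replicate 3 is thus not distinguishable from background.

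**Figure D1:**
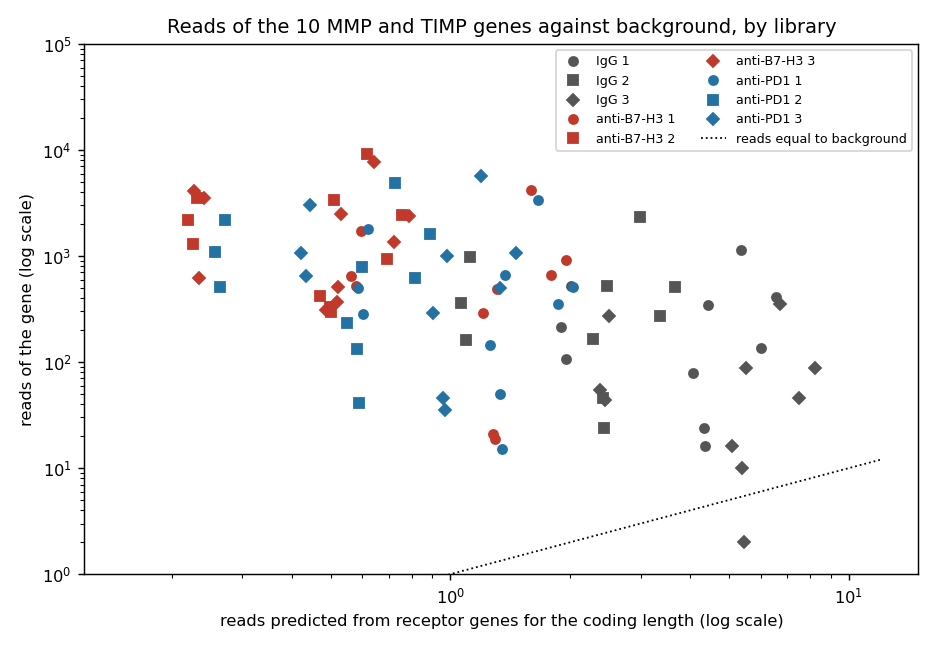
Estimated reads of each of the 10 genes (vertical, log scale) against the reads predicted for its coding length from receptor genes in the same library (horizontal, log scale), with 1 point per gene and library. Mmp13 in IgG replicate 3 (2 reads against 5.44 predicted) lies under the dotted line of equality.

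Levels were compared between genes as CPM per kilobase of coding length, averaged over the 9 libraries with their SD. Timp2 was the most abundant, at 163 ± 23.1 (n = 9). Mmp14, the membrane-anchored protease also known as MT1-MMP, followed at 127 ± 17.2 (n = 9), and was lower than Timp2 in 9 of 9 libraries. Timp1 came next, at 77.5 ± 38.4 (n = 9), with a wide spread that took it above Mmp14 in 1 library, anti-B7-H3 replicate 3. Mmp3 at 36.3 ± 14.7 and Timp3 at 36.0 ± 9.34 did not differ beyond their spread, since Mmp3 was the higher of this pair in 5 of 9 libraries. Mmp9 at 26.0 ± 7.02 was lower than Timp3 in 7 of 9 libraries. Mmp2 at 13.9 ± 2.59 and Mmp11 at 9.05 ± 2.75 kept their order in 9 of 9. At the bottom were Mmp12 at 3.59 ± 2.04 and Mmp13 at 2.59 ± 2.95, whose order held in 8 of 9 libraries. Between the highest and the lowest library Mmp14 differed 1.59-fold, Mmp3 3.77-fold, Mmp12 8.88-fold and Mmp13 14.2-fold. The protease with the highest level was thus the one that varied least among these, and the least abundant varied most.

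**Figure D2:**
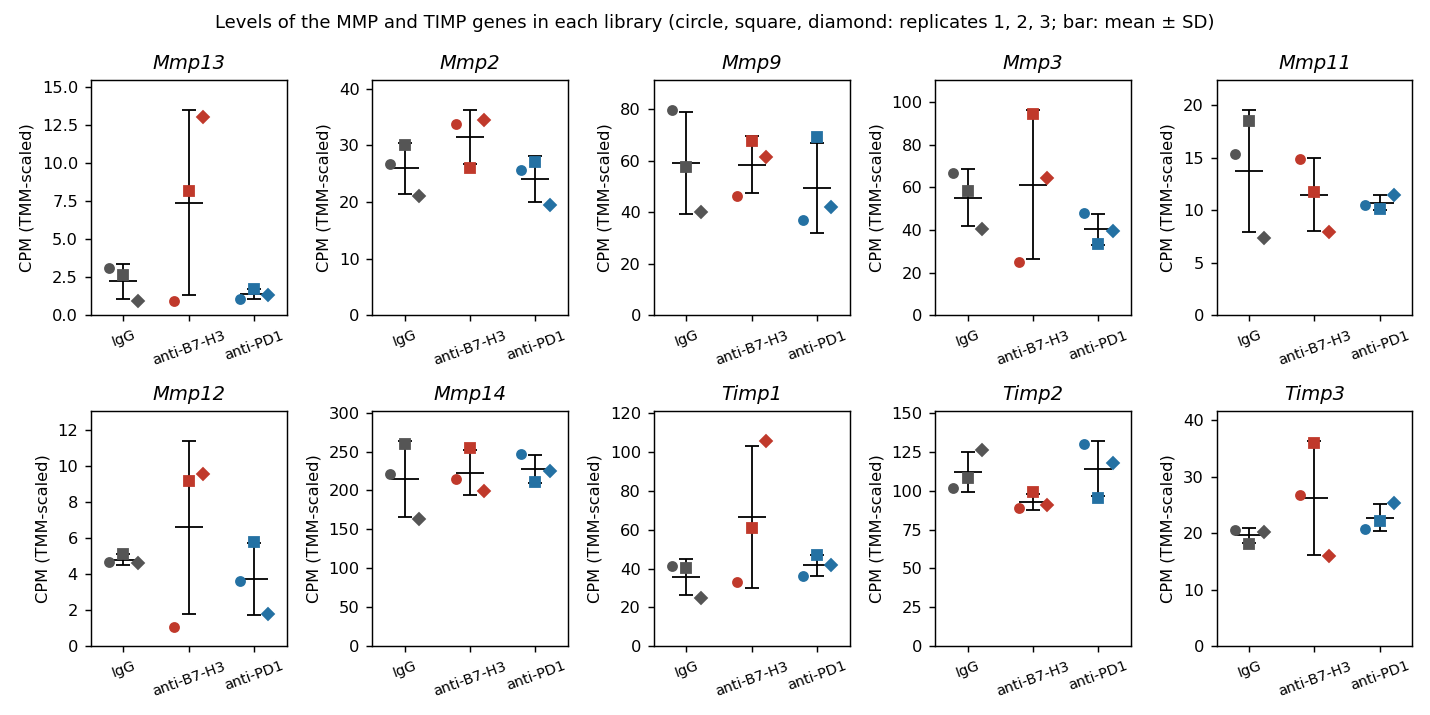
TMM-scaled CPM of each gene (vertical) in the 9 libraries by treatment group (horizontal), with 1 panel per gene, circles, squares and diamonds for replicates 1, 2 and 3, and bars for the mean ± SD over 3 libraries. With anti-B7-H3, Mmp13 spans 0.972 to 13.0 CPM and Timp1 33.1 to 106, while Mmp14 stays between 164 and 260 in all 9 libraries.

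None of the 10 genes passed the threshold, an adjusted p under 0.05 in edgeR's quasi-likelihood test with Benjamini-Hochberg adjustment over the 12980 genes tested. For anti-B7-H3 against IgG 0 of 10 were called, against 0.609% of all tested genes. For anti-PD1 against IgG 0 of 10 were called, against 0.408%. For anti-B7-H3 against anti-PD1 no gene at all was called (0%), and a joint test of all 3 groups called 0 of 10 against 1.22%. At an unadjusted p under 0.05 the same edgeR tests picked 1 of 10 (Timp1) for anti-B7-H3 against IgG, where 10.6% of all genes pass. They picked 0 of 10 for anti-PD1 against IgG, where 18.5% pass, and 1 of 10 (Mmp13) for anti-B7-H3 against anti-PD1, where 6.48% pass. The joint test picked 1 of 10 (Mmp13), where 14.0% pass. DESeq2 called 0, 0 and 0 in the pairwise comparisons, where it called 502, 822 and 24 of 12980 genes. In the joint test it called 1 of 10, Mmp13, and 778 of 12980 genes. Limma-voom called 0 throughout, against 77, 82 and 0 of all genes in the pairwise comparisons and 76 in the joint test. These shares are near the background of all genes, so they are not a result about the family.

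Groups that do not overlap were also counted. Between anti-B7-H3 and IgG 1 of 10 genes did not overlap (Timp2, lower with anti-B7-H3), where 16.3% of all genes do not. Between anti-PD1 and IgG it was 1 of 10 (Timp3, higher with anti-PD1), where the share is 23.0%. Between the antibodies it was 0 of 10, where the share is 15.5%. The median log2 fold change of the 10 genes was 0.20 for anti-B7-H3 against IgG (0.03 over all tested genes), -0.20 for anti-PD1 against IgG (0.01 over all) and 0.32 between the antibodies (0.01 over all). The 3 comparisons share libraries pairwise, so these values are not independent of each other. Scaling by library totals in place of TMM (trimmed mean of M values, which centres on the typical gene) moved the median of all tested genes to 3.37, 3.15 and 0.20 in the 3 comparisons. All changes are therefore given relative to the typical gene.

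**Figure D3:**
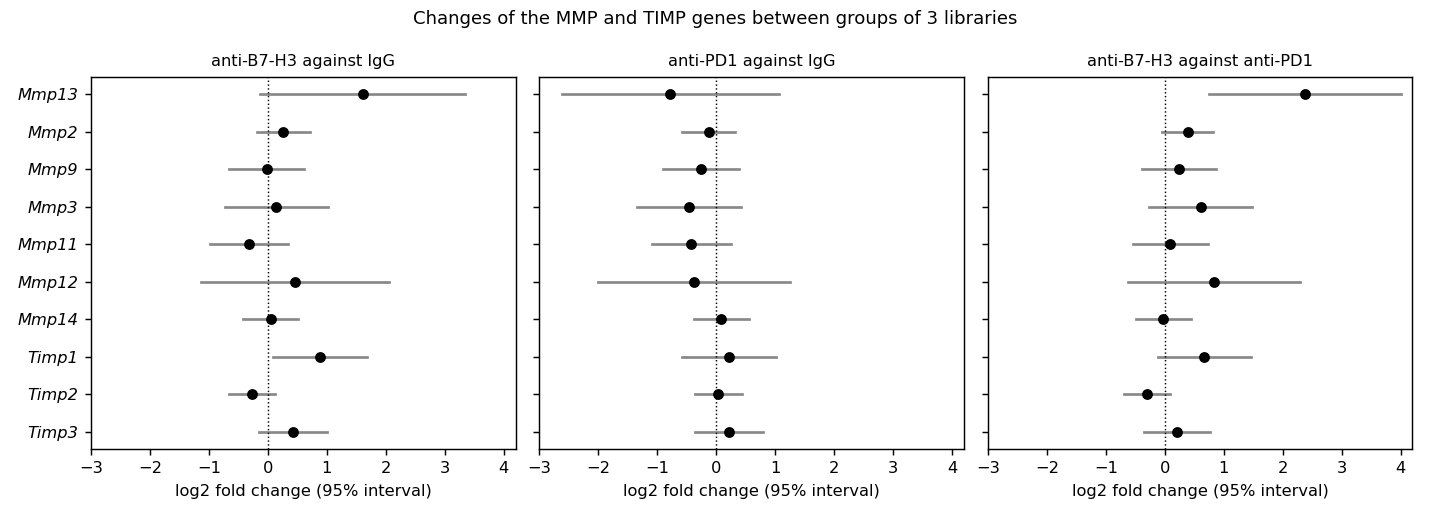
Log2 fold change of each gene (horizontal, points) with its 95% interval (lines) in the 3 comparisons of groups of 3 libraries, from edgeR. The interval excludes 0 for Timp1 in anti-B7-H3 against IgG (0.08 to 1.69) and for Mmp13 in anti-B7-H3 against anti-PD1 (0.76 to 4.01), neither of which passed after adjustment.

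The collagenase Mmp13, the stromelysin Mmp3 and the macrophage elastase Mmp12 lie in 1 cluster on chromosome 9 (GRCm38), which holds 10 family genes within 427 kb. Mmp13 (ENSMUSG00000050578) is at chr9:7272514-7283331, Mmp12 (ENSMUSG00000049723) at chr9:7344381-7369499 and Mmp3 (ENSMUSG00000043613) at chr9:7445822-7455975, all on the plus strand. Genes of this cluster are known to respond to AP-1, the dimer of Fos and Jun proteins. Their upstream bases are shown because these 3 are the members with the sequence TGAGTCA or its reverse complement TGACTCA, the AP-1 consensus, within 250 bases before the start. Each line below gives the 100 bases before the RefSeq start (GRCm38.p6, plus strand, 5′ to 3′) with that sequence in capitals.
Mmp3, chr9:7445722-7445821: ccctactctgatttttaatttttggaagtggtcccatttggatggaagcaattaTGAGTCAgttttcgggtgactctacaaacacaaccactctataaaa
Mmp12, chr9:7347274-7347373: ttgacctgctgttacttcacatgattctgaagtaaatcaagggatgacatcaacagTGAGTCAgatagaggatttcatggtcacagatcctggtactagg
Mmp13, chr9:7272414-7272513: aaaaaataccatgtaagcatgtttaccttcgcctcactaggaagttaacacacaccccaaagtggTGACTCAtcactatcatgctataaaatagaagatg
The first base of the match lies 46, 44 and 35 bases before the start in Mmp3, Mmp12 and Mmp13. For Mmp12 the start shown is that of the transcript with 97.9% of its reads. RefSeq windows were found for 8 of the 10 genes, and Mmp2 and Mmp9 had no entry. The sequence was not found in the windows of Mmp11, Mmp14, Timp1, Timp2 and Timp3. Of all 32851 promoter windows 4.46% hold it, and of the 27025 genes with a window 5.16% hold it in at least 1. In the chromosome 9 cluster 7 of 10 genes hold it, and of the 12 family genes elsewhere that have an entry 0 do. A match describes these letters only and does not show that a factor binds there.

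Mmp13, a collagenase that cleaves fibrillar collagen, had 3.11, 2.68 and 0.919 CPM in IgG replicates 1, 2 and 3. With anti-B7-H3 it had 0.972, 8.19 and 13.0 CPM, from 19, 295 and 507 reads. With anti-PD1 it had 1.09, 1.77 and 1.37 CPM. Replicates 2 and 3 of anti-B7-H3 lay above every other library, and replicate 1 lay among the lowest, so the groups overlap. The log2 fold change was 2.38 ± 0.73 (SE) for anti-B7-H3 against anti-PD1, with an edgeR adjusted p of 0.749 (unadjusted 0.00868). Against IgG it was 1.61 ± 0.78 for anti-B7-H3 (edgeR adjusted p 0.518) and -0.78 ± 0.82 for anti-PD1 (0.650). Without anti-B7-H3 replicate 1 the change against IgG was 2.12 with an edgeR adjusted p of 0.0356, and against anti-PD1 2.89 with 0.0596. Without anti-B7-H3 replicate 3 they were 0.94 with an edgeR adjusted p of 0.996 and 1.70 with 0.849. The size and the call thus turn on single libraries. With the receptor reads as a covariate the changes against IgG became -2.93 ± 1.37 for anti-B7-H3 and -4.06 ± 1.08 for anti-PD1. The difference between the antibodies became 1.13. Neither change against IgG passed the threshold. Receptor reads of the IgG libraries did not overlap those of the antibody libraries. The covariate and the treatment can thus hardly be told apart against IgG, and these values are not corrected changes.

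Mmp3, a stromelysin that cleaves proteoglycans and other metalloproteinase proenzymes, had 66.9, 58.3 and 40.4 CPM after IgG. It had 25.0, 94.4 and 64.4 CPM after anti-B7-H3 and 47.8, 33.7 and 39.3 CPM after anti-PD1. Anti-B7-H3 held both the lowest and the highest library of all 9. The log2 fold change was 0.14 ± 0.40 for anti-B7-H3 against IgG (edgeR adjusted p 0.944), -0.47 ± 0.40 for anti-PD1 against IgG (0.559) and 0.61 ± 0.39 between the antibodies (0.780). The first of these turned negative with limma-voom, at -0.08.

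Mmp12, an elastase made mainly by macrophages, had 4.67, 5.14 and 4.60 CPM after IgG, from 24, 46 and 10 reads. With anti-B7-H3 it had 1.07, 9.14 and 9.54 CPM, and with anti-PD1 3.64, 5.78 and 1.80. The 2 highest libraries and the lowest were again all anti-B7-H3. Log2 fold changes were 0.46 ± 0.71 for anti-B7-H3 against IgG (edgeR adjusted p 0.875), -0.37 ± 0.73 for anti-PD1 against IgG (0.822) and 0.83 ± 0.65 between the antibodies (0.809). Their 95% intervals were wide, at -1.13 to 2.05, -2.00 to 1.25 and -0.63 to 2.30. With the receptor reads as a covariate, which hardly separates from treatment against IgG, the changes became -2.66 ± 1.55 for anti-B7-H3 and -2.62 ± 1.20 for anti-PD1. The difference between the antibodies became -0.038. Part of Mmp12, 157 of its 1695 annotated coding bases, overlaps exons of Mmp1b on the other strand. The sources used here do not state whether counting used the strand, so reads there cannot be told apart.

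The gelatinases Mmp2 and Mmp9 cleave denatured collagen and basement membrane collagen. Mmp2 (ENSMUSG00000031740, chr8:92827291-92853420, plus strand) had 26.6, 30.03 and 21.1 CPM after IgG, 33.8, 26.0 and 34.5 after anti-B7-H3 and 25.7, 27.0 and 19.4 after anti-PD1. Its log2 fold change was 0.39 ± 0.20 between the antibodies (95% interval -0.05 to 0.83, edgeR adjusted p 0.759), 0.26 ± 0.21 for anti-B7-H3 against IgG (0.709) and -0.13 ± 0.21 for anti-PD1 against IgG (0.781). All 3 groups overlapped. Mmp9 (ENSMUSG00000017737, chr2:164940780-164955850, plus strand), known from neutrophils and macrophages, had 79.5, 57.5 and 40.0 CPM after IgG. It had 46.5, 67.8 and 61.3 after anti-B7-H3 and 36.9, 69.3 and 42.1 after anti-PD1. The spread within each group was wider than the distance between the group means. Its log2 fold changes were -0.02 ± 0.29 (edgeR adjusted p 0.993), -0.26 ± 0.29 (0.664) and 0.24 ± 0.29 (0.870), in the order anti-B7-H3 against IgG, anti-PD1 against IgG and anti-B7-H3 against anti-PD1.

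Mmp14 (ENSMUSG00000000957, chr14:54431612-54445364, plus strand) cleaves collagen at the cell surface and, with Timp2, activates the Mmp2 proenzyme. It had 220, 260 and 164 CPM after IgG, 215, 255 and 199 after anti-B7-H3 and 246, 211 and 224 after anti-PD1. The group means lay within the spread of the IgG libraries. Its log2 fold changes were 0.05 ± 0.21 for anti-B7-H3 against IgG (95% interval -0.41 to 0.52), 0.08 ± 0.21 for anti-PD1 against IgG (-0.39 to 0.55) and -0.03 ± 0.21 between the antibodies (-0.49 to 0.44), with edgeR adjusted p of 0.970, 0.879 and 0.991. Changes beyond about 0.55 log2 units lie outside these intervals.

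Mmp11 (ENSMUSG00000000901, chr10:75923222-75936496, minus strand), a stromelysin-like protease of stromal fibroblasts, had 15.4, 18.5 and 7.35 CPM after IgG, 14.9, 11.7 and 7.92 after anti-B7-H3 and 10.6, 10.1 and 11.5 after anti-PD1. The anti-PD1 libraries lay close together inside the range of the others. Log2 fold changes were -0.33 ± 0.30 for anti-B7-H3 against IgG (edgeR adjusted p 0.760), -0.42 ± 0.30 for anti-PD1 against IgG (0.481) and 0.10 ± 0.29 between the antibodies (0.963).

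Among the inhibitors, Timp1 (ENSMUSG00000001131, chrX:20870166-20874735, plus strand) is induced by cytokines and blocks most secreted metalloproteinases. It had 41.4, 40.4 and 24.8 CPM after IgG, 33.1, 60.7 and 106 after anti-B7-H3 and 36.3, 47.1 and 41.9 after anti-PD1. Replicates 2 and 3 of anti-B7-H3 were above all other libraries, and replicate 1 was below 2 of the IgG libraries. The log2 fold change for anti-B7-H3 against IgG was 0.89 ± 0.36 (95% interval 0.08 to 1.69), with an edgeR adjusted p of 0.395 and an unadjusted p of 0.0333. It was 0.21 ± 0.36 for anti-PD1 against IgG (0.792) and 0.67 ± 0.35 between the antibodies (0.760). Without anti-B7-H3 replicate 3 the change of anti-B7-H3 against IgG was 0.39 (edgeR adjusted p 0.995), and without replicate 1 it was 1.22 (0.0804). With the receptor reads as a covariate, which hardly separates from treatment against IgG, the changes became -0.97 ± 0.62 for anti-B7-H3 and -1.18 ± 0.50 for anti-PD1.

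Timp2 (ENSMUSG00000017466, chr11:118301069-118355740, minus strand) inhibits metalloproteinases and bridges Mmp14 and the Mmp2 proenzyme. It had 101, 108 and 126 CPM after IgG, 88.7, 98.9 and 90.5 after anti-B7-H3 and 130, 95.2 and 118 after anti-PD1. All anti-B7-H3 libraries lay below all IgG libraries, by a small margin. The log2 fold change was -0.27 ± 0.18 (95% interval -0.67 to 0.13, edgeR adjusted p 0.655), against 0.03 ± 0.18 for anti-PD1 against IgG (0.955) and -0.30 ± 0.18 between the antibodies (0.770).

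Timp3 (ENSMUSG00000020044, chr10:86300372-86349506, plus strand) is bound to the matrix and also inhibits ADAM proteases. It had 20.6, 18.1 and 20.2 CPM after IgG, 26.7, 36.0 and 16.0 after anti-B7-H3 and 20.7, 22.2 and 25.4 after anti-PD1. The anti-PD1 libraries lay above the IgG libraries, the closest pair at 20.7 and 20.6. Log2 fold changes were 0.22 ± 0.27 for anti-PD1 against IgG (edgeR adjusted p 0.696), 0.42 ± 0.26 for anti-B7-H3 against IgG (0.624) and 0.20 ± 0.25 between the antibodies (0.875).

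**Figure D4:**
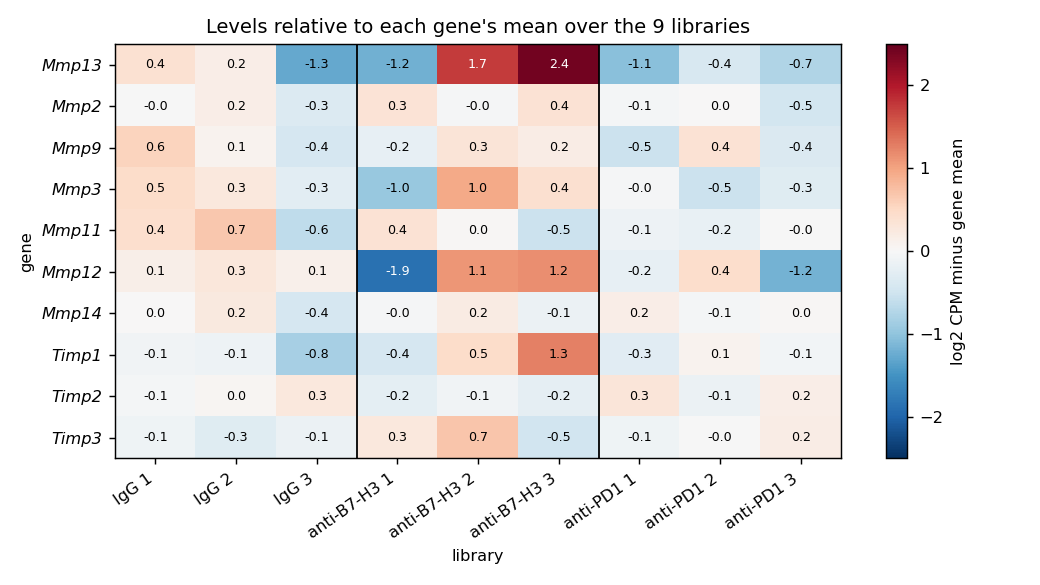
Log2 CPM of each gene (rows) in each library (columns) minus that gene's mean over the 9 libraries, with red above and blue below the mean. In the rows of Mmp13, Mmp12 and Mmp3, anti-B7-H3 replicate 1 is below the mean and replicates 2 and 3 are above it.

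The balance of protease to inhibitor RNA was taken as a ratio of CPM per kilobase. The 7 proteases summed over the 3 inhibitors gave 0.944, 0.967 and 0.607 after IgG, 0.831, 0.906 and 0.679 after anti-B7-H3 and 0.745, 0.793 and 0.683 after anti-PD1. The summed RNA of these 3 inhibitors thus exceeded that of these 7 proteases in all 9 libraries, and the groups overlapped. Other family genes are not in the sums. Mmp14 over Timp2 ran from 0.486 to 0.964. Mmp9 over Timp1 was 0.555, 0.411 and 0.466 after IgG, 0.405, 0.322 and 0.168 after anti-B7-H3 and 0.294, 0.425 and 0.291 after anti-PD1. All anti-B7-H3 ratios of this pair lay below all IgG ratios. The pair was singled out after its values were seen and was not tested.

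The 3 cluster genes shared a wide spread within the anti-B7-H3 group. The highest library was 13.4 times the lowest for Mmp13, 8.88 times for Mmp12 and 3.77 times for Mmp3, with replicate 1 lowest each time. Mmp10 and Mmp1a, the only other tested genes of the cluster, also hold the AP-1 sequence and gave 10.004 and 4.38, again with replicate 1 lowest. The 13 other tested family genes, of which 9 have a promoter window without the sequence and 4 have no window, gave 1.11 to 3.18, the highest being Timp1. Among these 13, replicate 1 was also the lowest for Timp1, Mmp25, Mmp9, Mmp19 and Timp2. Over all tested genes the median was 1.38 and the 95th percentile 4.59. In the anti-PD1 group the ratio was 1.62 for Mmp13, 3.20 for Mmp12 and 1.42 for Mmp3, and 3.65 for Mmp10 and 3.94 for Mmp1a. The 13 others gave 1.03 to 2.33 there, so Mmp12, Mmp10 and Mmp1a lay above all of them. All tested genes had a median of 1.48 and a 95th percentile of 3.72 in that group. In the IgG group the ratio was 3.38, 1.12 and 1.65 for Mmp13, Mmp12 and Mmp3, and 2.51 and 4.12 for Mmp10 and Mmp1a. The 13 others gave 1.14 to 8.23 after IgG, the highest being Mmp25. The median of all tested genes there was 1.65 and the 95th percentile 9.60. Several of these rest on few reads in the lowest library. The 95% counting interval (exact binomial) of the IgG ratio is 0.796 to 30.3 for Mmp13 and 0.783 to 12.8 for Mmp10. For Mmp12 it is 0.556 to 2.48 there. In the anti-PD1 group it is 0.900 to 23.6 for Mmp1a, 1.53 to 10.6 for Mmp10 and 2.27 to 4.58 for Mmp12. In the anti-B7-H3 group it is 2.00 to 11.4 for Mmp1a, which includes the 3.18 of Timp1. The intervals of Mmp13, Mmp10, Mmp12 and Mmp3 in that group start at 8.50, 5.33, 5.72 and 3.43. Whether the spread differs between the groups was not tested. Anti-B7-H3 replicate 1 also stands apart from the other libraries of its group, with 28.2% satellite reads against 5.24 and 6.41%, and receptor reads of 200 CPM against 41.3 and 40.6. Against sampling noise, counts of all genes gave a chi-square per degree of freedom of 213 and 216 between replicate 1 and the other 2. Between those 2 it was 47.1. These counts include the satellite genes, so the values hold the difference in satellite reads just given. They were not computed without the satellites and do not show that other genes differ more. The part of this library's composition in the spread was not tested. Mmp1a and Mmp1b are close paralogs whose reads may be split between them. Grouping the genes by the AP-1 sequence was done after the values were seen and is a description. The tested genes with the sequence are the same as the tested genes of the cluster. Mmp13, Mmp12, Mmp10 and Mmp1a are also low in level, with median CPM of 1.77, 4.67, 1.59 and 0.558. Sequence, position in the cluster and low level therefore cannot be told apart here, and their part in the spread was not tested.

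**Figure D5:**
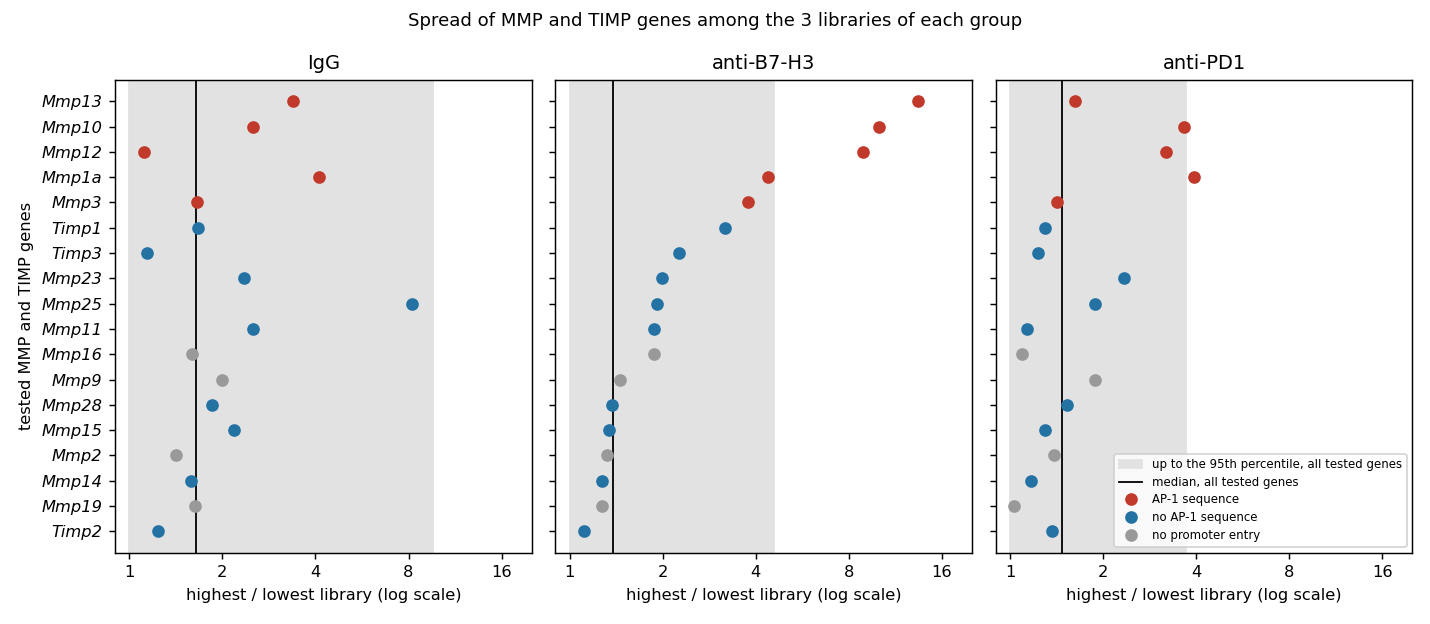
Highest over lowest library CPM within each group of 3 (horizontal) for the 18 tested MMP and TIMP family genes (vertical), colored by whether the AP-1 sequence is in the promoter window. The tested genes with the sequence are the same as the tested genes of the chromosome 9 cluster. With anti-B7-H3 the 5 genes with the sequence lie at 3.77 to 13.4 and the 13 others, 4 of them with no promoter entry, at 1.11 to 3.18. With anti-PD1 the 5 lie at 1.42 to 3.94 and the 13 others at 1.03 to 2.33. With IgG the 5 lie at 1.12 to 4.12 and the 13 others at 1.14 to 8.23.

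Profiles across the 9 libraries were compared by the root mean square difference of log2 CPM after each gene's mean was removed. The nearest gene to Mmp3 was Ddit3 at 0.16, followed by Adm at 0.21 and Atf3 at 0.24. Mmp12 lay nearest Hmox1 at 0.48 and Mmp13 nearest Prf1 at 0.56. Around their own means these genes varied by 0.93 and 1.24 in the same measure, against 0.26 for Mmp2. The larger distances therefore do not show that Mmp12 and Mmp13 match their neighbours less well. Timp1 lay nearest Wars at 0.16, Mmp14 nearest Srp68 at 0.07 and Timp2 nearest Reep3 at 0.07. Mmp2 lay nearest Lmf1 at 0.13, Mmp9 nearest Gadd45gip1 at 0.16, Mmp11 nearest Acbd4 at 0.13 and Timp3 nearest Ganc at 0.18. Flat genes have many near neighbours by this measure.

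Of the 17 other MMP and TIMP family genes 8 were abundant enough to test, and edgeR called 0 of them in any comparison. The 3 with the smallest joint p were Mmp16, a membrane-anchored protease, and the cluster genes Mmp10 and Mmp1a. Mmp16 had 7.19, 9.04 and 11.5 CPM after IgG and 14.8, 13.5 and 14.6 after anti-PD1, a log2 difference of 0.66 ± 0.26 (edgeR adjusted p 0.208). Mmp10, a stromelysin, had 0.511, 3.67 and 5.12 CPM after anti-B7-H3 and 0.437, 1.59 and 1.10 after anti-PD1, a log2 difference of 1.55 ± 0.69 (edgeR adjusted p 0.749).

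Genes that activate or restrain metalloproteinases, 16 of 17 tested, had 0 calls with edgeR, and 13 positive and 3 negative differences for anti-B7-H3 against IgG with a median of 0.27 (0.03 over all genes). Thbs1, a matrix glycoprotein that binds metalloproteinases, had 25.1, 33.7 and 27.6 CPM after IgG and 38.5, 50.8 and 90.4 after anti-B7-H3. The log2 difference was 1.05 ± 0.29 (edgeR adjusted p 0.142). Plaur, the urokinase receptor, differed by 0.80 ± 0.30 in that comparison (edgeR adjusted p 0.320). The proprotein convertase Pcsk6 differed by -1.20 ± 0.46 (0.336).

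The 18 matrix substrates also had 0 edgeR calls, with medians of 0.05, -0.09 and 0.13 in the 3 comparisons. Col1a1, the main chain of fibrillar collagen I, differed by 1.06 ± 0.46 between anti-B7-H3 and anti-PD1 (edgeR adjusted p 0.749). In that comparison Tnc differed by 0.80 ± 0.33 (edgeR adjusted p 0.749) and Sparc by -0.29 ± 0.24 (0.817). Among the 18 substrates 14 differences were positive and 4 negative there. Of the inducers and transcription factors 16 of 18 were tested and 0 called, with 15 of 16 positive between anti-B7-H3 and anti-PD1 and a median of 0.29 (0.01 over all genes). Fos, a subunit of AP-1, had 4.08, 2.12 and 2.30 CPM after IgG, 5.27, 5.39 and 5.48 after anti-B7-H3 and 2.69, 4.87 and 3.33 after anti-PD1. Its log2 difference for anti-B7-H3 against IgG was 0.92 ± 0.33 (edgeR adjusted p 0.302). Fosl1, also an AP-1 subunit, went the other way against IgG. It had 33.8, 26.9 and 24.4 CPM after IgG and 21.9, 25.2 and 24.4 after anti-B7-H3. After anti-PD1 it had 15.7, 9.70 and 23.0 CPM. The log2 differences against IgG were -0.26 ± 0.27 for anti-B7-H3 (edgeR adjusted p 0.797) and -0.82 ± 0.28 for anti-PD1 (0.162). Junb, another AP-1 subunit, had 36.2, 35.6 and 14.7 CPM after IgG, 26.4, 43.2 and 43.5 after anti-B7-H3 and 20.3, 25.2 and 18.2 after anti-PD1. Replicate 1 of anti-B7-H3 was thus the lowest of its group for Junb, and the 3 levels of Fos and of Fosl1 there lay close together. The part of AP-1 in the levels of the 10 genes was not tested.

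Markers of the cells that can make these genes varied between libraries too. Summed CPM of 12 macrophage and monocyte markers was 578, 504 and 211 after IgG, 666, 621 and 1016 after anti-B7-H3 and 458, 1117 and 443 after anti-PD1. In anti-B7-H3 replicate 1, the lowest of its group for Mmp12 and Mmp13, the macrophage sum was within the range of the other libraries of that group. The 11 fibroblast markers summed to 3030 to 8049 after IgG, 5732 to 9113 after anti-B7-H3 and 5270 to 6793 after anti-PD1, highest in anti-B7-H3 replicate 1. Neutrophil markers stayed at 4.59 to 16.5 CPM in sum, with 2 of 10 tested, and none of the markers in these lists was at 0 in all libraries. Skeletal muscle markers ran from 1.08 to 1637, with both extremes in the anti-B7-H3 group. The part of these cell types in the levels of the 10 genes was not tested, and in bulk RNA fewer cells of a type and less RNA per cell cannot be told apart.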

How the data were processed

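Per the file headers, the deposited tables give estimated counts per transcript (not normalized), TPM that the authors scaled by effective length, and lengths. The submitters' processing notes name FastQC 0.11.8 and GRCm38. Which program quantified the reads was not given in the sources used here. Of 58083 transcripts, 57473 were matched to GENCODE M21 by identifier. The 610 others held 0.0537 to 0.344% of reads. For 99.7% of matched transcripts with a coding sequence the length equals it within 3 bases, so lengths are coding lengths. Estimated counts were summed per gene and rounded, and TPM was not used.

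edgeR 4.0.16 (R 4.3.3) fitted 1 robust quasi-likelihood model to all 9 libraries, with TMM scaling, filterByExpr and group as the only term. It tested 12980 genes, with Benjamini-Hochberg adjustment and a threshold of 0.05. The biological coefficient of variation was 28.5%. Intervals are 95% and cover the spread between libraries. Satellite genes (12) share over 30% of their 15-base words with 5 seed genes, and 1515 receptor genes measured background. The test was checked on simulated counts in which all libraries shared the same composition and dispersion, apart from planted changes. That check does not cover the different composition of the IgG libraries. DESeq2 1.42.0 and limma 3.58.1 were alternatives. Named genes are the 10 members, up to 3 genes per further list with the smallest joint p, and the nearest profiles, of which some are printed. Members and lists were chosen with earlier results of these data known.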

Additional observations from a re-analysis of the deposited data

How the results depend on the processing

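Each result was recomputed under 21 alternatives. Of 630 recomputed log2 fold changes 574 kept their direction and side of the threshold and 44 changed sign. Of all 630, 21 newly passed the threshold, 9 of them with a changed sign, and 20 of the 21 came from library totals. Scaling by library totals called 10 of 10 genes in both comparisons with IgG (10 for anti-B7-H3, 10 for anti-PD1) and 10 in the joint test, by shifting the median of all genes. Of all 12980 tested genes it called 12539, 12342 and 12409 in these. DESeq2 called 1 (Mmp13) in the joint test, among 778 of 12980 genes. Leaving out 1 library gave 0 to 1 calls in anti-B7-H3 against IgG, 0 to 0 in anti-PD1 against IgG, 0 to 0 between the antibodies and 0 to 1 in the joint test, the call being Mmp13 without anti-B7-H3 replicate 1. Without that library 139 of 13298 genes were called in anti-B7-H3 against IgG and 262 in the joint test.

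Sign changes under library totals were Mmp9 3.36, Mmp11 2.92 and Timp2 3.11 in anti-B7-H3 against IgG. In anti-PD1 against IgG they were Mmp2 2.98, Mmp3 2.65, Mmp9 2.93, Mmp11 2.66, Mmp12 2.75 and Mmp13 2.35, and between the antibodies Mmp14 0.18. With receptor reads as covariate, anti-B7-H3 against IgG gave Mmp3 -1.31, Mmp12 -2.66, Mmp13 -2.93, Mmp14 -0.34, Timp1 -0.97 and Timp2 0.012. In anti-PD1 against IgG this covariate gave Mmp14 -0.23 and Timp1 -1.18, and between the antibodies Mmp12 gave -0.038. This covariate also moved values without a change of sign, to -1.17 for Mmp9 in anti-B7-H3 against IgG. In anti-PD1 against IgG it gave -1.50 for Mmp3, -1.20 for Mmp9, -2.62 for Mmp12 and -4.06 for Mmp13. With it 0 of the 10 genes were called. Receptor reads of the IgG libraries did not overlap those of the antibody libraries, so the covariate and the treatment can hardly be told apart against IgG. With receptor background subtracted, Mmp3 gave -0.033 and Mmp14 -0.14 for anti-B7-H3 against IgG, and Mmp14 -0.11 and Timp2 -0.19 for anti-PD1 against IgG. With no filter, Mmp9 gave 0.21 (anti-B7-H3 against IgG) and Mmp2 0.080 (anti-PD1 against IgG). Limma-voom gave Mmp3 -0.081 (anti-B7-H3 against IgG), quality weights gave Mmp14 0.024 (between the antibodies), and a fit to only the groups compared gave Timp2 -0.00049 (anti-PD1 against IgG). The cause was not tested.

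Leaving out 1 library also changed signs. Ranges for anti-B7-H3 against IgG were -0.30 to 0.53 for Mmp3, -0.22 to 0.26 for Mmp9 and -0.10 to 0.23 for Mmp14. For anti-PD1 against IgG they were -0.24 to 0.019 for Mmp2, -0.58 to 0.015 for Mmp9, -0.076 to 0.25 for Mmp14 and -0.054 to 0.16 for Timp2. Between the antibodies they were -0.13 to 0.31 for Mmp11, -0.13 to 0.049 for Mmp14 and -0.094 to 0.47 for Timp3.

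With the replicate number as a block, 0 of 10 genes were called in each comparison. Deviations of same-numbered libraries correlated at -0.32 to 0.18, with 3 of 9 pairs over 0.1, so the numbers do not show pairing. Depth limits the IgG libraries most, where Mmp13 rests on 16, 24 and 2 reads.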

Other observations

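Other protease families in the same libraries were looked at beside the metalloproteinases. All 12 genes of a list of cathepsins and related genes were tested. The list also holds Cst3 and Cstb, which encode cystatins, inhibitors of cathepsins. Of these 12 genes edgeR called 0. At an unadjusted p under 0.05 it picked 4 of 12 for anti-B7-H3 against IgG, where 10.6% of all tested genes pass. It picked 3 of 12 for anti-PD1 against IgG, where 18.5% pass, and 0 of 12 between the antibodies, where 6.48% pass. Differences were positive for 12 of 12 genes for anti-B7-H3 against IgG, with a median of 0.59 (0.03 over all genes). For anti-PD1 against IgG they were positive for 11 of 12, with a median of 0.61 (0.01 over all genes). Both comparisons use the same IgG libraries. Between the antibodies 6 were positive and 6 negative. Ctss, cathepsin S of antigen-presenting cells, had 129, 66.3 and 58.4 CPM after IgG and 131, 173 and 274 after anti-B7-H3, a log2 difference of 1.18 ± 0.36 (edgeR adjusted p 0.208). The macrophage markers had positive differences for 12 of 12 genes in that comparison, with a median of 1.08.

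Of the 18 ADAM and ADAMTS genes, all tested, edgeR called 0 in each comparison, with 4 of 18 at an unadjusted p under 0.05 between the antibodies, where 6.48% of all tested genes pass. At that level it picked 1 of 18 for anti-B7-H3 against IgG, where 10.6% pass. For anti-PD1 against IgG it picked 2 of 18, where 18.5% pass. Adam8, a membrane protease of leukocytes, had 22.1, 25.9 and 56.6 CPM after anti-B7-H3 and 12.7, 14.5 and 13.1 after anti-PD1, a log2 difference of 1.38 ± 0.33 (edgeR adjusted p 0.749). Adamts7 differed by 1.06 ± 0.28 in that comparison (edgeR adjusted p 0.749).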
